A study of Mus musculus with 10 samples.

Results

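Cytotoxic T cell genes and the chemokines that draw such cells were followed in mouse kidney as a set of 10 genes out of 33644 in the bulk table: Cd8a, Cd8b1, Gzmb, Gzmk, Nkg7, Ccl5, Cxcl9, Cxcl10, Cxcr3 and Cxcr6. They, and the lists of related genes used below, were chosen by name with earlier results of these data known. Counts of these genes that passed describe them and are no independent support. All 10 passed the filter on low counts, all 10 are listed in the injured single-cell table, and 7 are listed in the uninjured one. Cytotoxic CD8 T cells recognise peptides on class I molecules through the T cell receptor with the CD8 co-receptor, and kill by releasing granules that hold granzymes. Interferon gamma made by these cells induces Cxcl9 and Cxcl10 in myeloid and tissue cells, and both chemokines bind CXCR3 on activated T cells. T cells of this kind are known to enter the kidney after ischaemic injury and to remain there while the tissue scars.

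All bulk groups came from mice labelled 8 weeks old. Kidneys harvested 2 weeks after 15 minutes of unilateral renal artery ligation came from 3 arms, each with the contralateral kidney as its partner group. The wild-type arm was C57/BL6 given tamoxifen, the vehicle arm was Pax8creERT2;Ihhfl/fl without tamoxifen, and the labelled Ihh-deleted arm was Pax8creERT2;Ihhfl/fl given tamoxifen. Uninjured C57/BL6 kidneys and the C57/BL6 kidney left after nephrectomy of the other side made up the other groups. The time after nephrectomy is not given in the sources used here. Pax8 drives the inducible Cre in tubular epithelium, so leukocytes are not the cells in which the gene is cut, and the vehicle arm differs from the wild-type arm in genotype and in treatment. The study asks what the ligand Indian hedgehog, encoded by Ihh, does in the scarring kidney. The injured and the uninjured single-cell library are 1 sample each, from C57/BL6 kidneys of mice 8 weeks old, the injured one harvested 2 weeks after the same 15 minutes of ligation.

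Of 32 bulk libraries, 4 per group, 3 carried a heart profile: uninjured libraries 1 and 4 and nephrectomy library 3 held the heart muscle gene Myh6 at 30525 to 31549 CPM (a gene's count scaled to the size of the library) and the proximal tubule gene Slc34a1 at no more than 3.70 CPM. They were left out, which leaves 29 libraries with 0.592 M to 37.9 M counts (M, 1e6 counts), the shallowest being uninjured library 2. Nephrectomy library 1 held Myh6 at 314 CPM against at most 3.56 CPM in the other 28. Ihh itself stood at 4.58 to 6.09 CPM in the injured labelled-deleted kidneys, 5.99 to 11.8 CPM in the injured wild-type kidneys and 6.89 to 15.4 CPM in the injured vehicle kidneys (log2 -0.72, SE 0.33, adjusted p = 0.0828 by edgeR), and at 3.44 to 17.2 CPM in the contralateral labelled-deleted kidneys, so that arm is called by its label. The labels do not say that the 4 libraries of a group are separate animals, and p-values then measure only the spread between libraries, which may be technical. In bulk tissue more cells of a type and more RNA per cell cannot be told apart.

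Cxcl9 and Cxcl10 lie next to each other on the minus strand of chromosome 5, at chr5:92321347-92328079 and chr5:92346638-92348889 in GRCm38, and their start regions are shown because these neighbouring chemokine genes did not move together in every group below. Both windows run from 250 bases before to 50 bases after the RefSeq start (GRCm38.p6, minus strand, chr5:92328030-92328329 for Cxcl9 and chr5:92348840-92349139 for Cxcl10). Capitals mark every match, on either strand, to GAAANNGAA (the core of the interferon-stimulated response element), TTCNNNGAA (the gamma-activated site), GGANTTNCC (an NF-kB-like site) and TATAAA (the TATA box).
Cxcl9: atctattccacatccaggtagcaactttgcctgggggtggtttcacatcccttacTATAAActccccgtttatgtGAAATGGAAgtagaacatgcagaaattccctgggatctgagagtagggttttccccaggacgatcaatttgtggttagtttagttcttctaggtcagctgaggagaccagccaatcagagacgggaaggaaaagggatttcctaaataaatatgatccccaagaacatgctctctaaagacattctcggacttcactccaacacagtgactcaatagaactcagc
Cxcl10: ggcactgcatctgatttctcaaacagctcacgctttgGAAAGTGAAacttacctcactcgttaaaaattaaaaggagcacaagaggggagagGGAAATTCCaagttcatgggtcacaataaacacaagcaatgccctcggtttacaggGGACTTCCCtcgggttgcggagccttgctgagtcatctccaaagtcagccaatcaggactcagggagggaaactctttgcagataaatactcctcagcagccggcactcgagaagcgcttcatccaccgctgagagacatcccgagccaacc
The Cxcl9 window held TATAAA from base -195 to -190 and GAAATGGAA from -175 to -167. The Cxcl10 window held GAAAGTGAA from -213 to -205, GGAAATTCC read on the other strand from -158 to -150, and GGACTTCCC from -102 to -94. Of 32851 RefSeq mouse windows of this length, 8.56% held GAAANNGAA, 8.30% TTCNNNGAA, 3.95% GGANTTNCC and 13.6% TATAAA. Windows were found for 8 of the 10 genes, not for Ccl5 and Cd8b1. Outside the pair shown, Gzmb and Nkg7 held 1 TTCNNNGAA each, and Cd8a, Gzmk, Cxcr3 and Cxcr6 held none of these letters. A match describes the letters alone.

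All 10 genes were higher in injured than in contralateral kidneys, and the rise ran across co-receptor, granule, chemokine and receptor genes. In edgeR's quasi-likelihood fit, with p-values adjusted over all genes by Benjamini and Hochberg's method, 10 of 10 passed an adjusted p of 0.05 upward over the 3 arms, where 39% of the 17591 genes tested did so. Their median log2 change was 2.52, against 0.05 over all genes tested. Leaving out wild-type library 2 ended the call of Gzmb (log2 0.82, adjusted p = 0.0817).

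**Figure D1:**
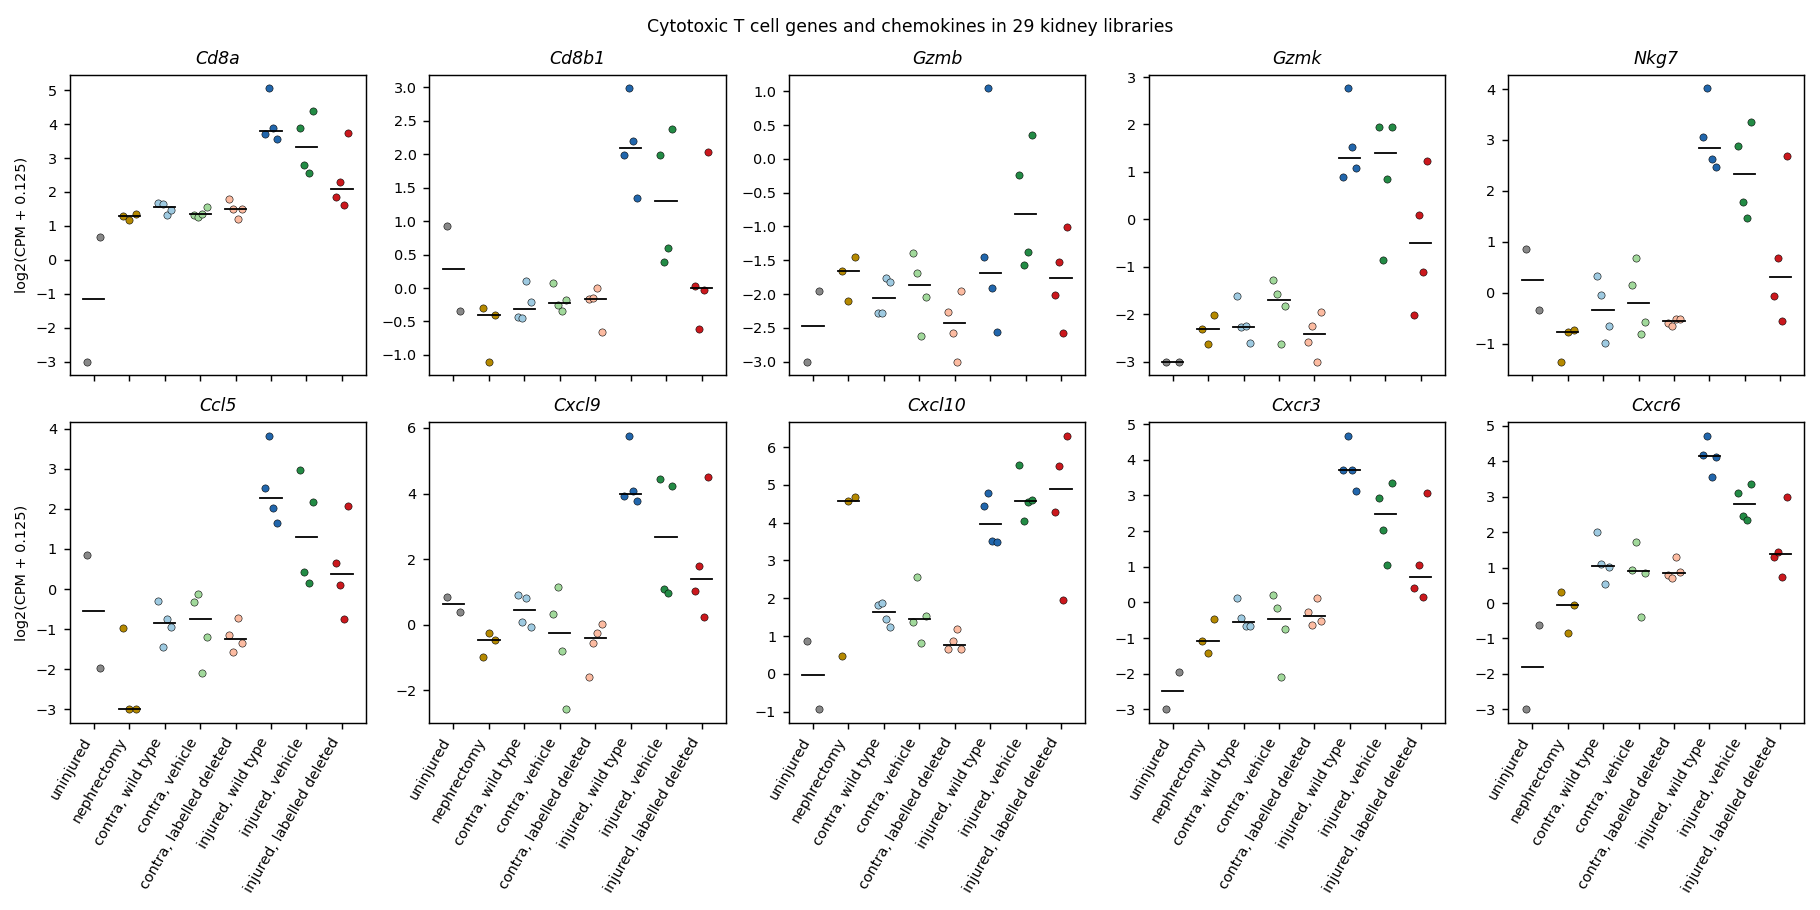
Level of each gene in each of 29 kidney libraries, as log2(CPM + 0.125) on the vertical axis, by group; points are libraries, bars are group medians, and a value of -3 is a count of 0. Injured libraries sit above contralateral ones for most genes, wild-type library 2 is highest in 9 of 10 genes, and library 4 of the injured labelled-deleted group lies above the other 3 of its group in every gene.

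Cd8a and Cd8b1 encode the paired chains of the CD8 co-receptor and lie on chromosome 6 at chr6:71373427-71379173 and chr6:71322788-71337494. Cd8a stood at 12.9, 33.2, 14.8 and 11.7 CPM in the injured wild-type libraries 1 to 4, at 14.8, 6.75, 5.71 and 20.7 CPM in the vehicle libraries and at 3.51, 4.79, 2.93 and 13.2 CPM in the labelled-deleted libraries. The 12 contralateral libraries held 2.20 to 3.31 CPM with a median of 2.68 CPM. All injured wild-type and vehicle libraries lay above every contralateral library, while labelled-deleted library 3 lay inside the contralateral range. Over the arms Cd8a rose by 1.66 on the log2 scale (SE 0.23, adjusted p = 7.76e-07) and Cd8b1 by 1.50 (SE 0.28, adjusted p = 4.53e-05). Cd8b1 ranged from 0.532 to 7.78 CPM in injured kidneys and from 0.510 to 0.945 CPM in contralateral ones. Retained-intron transcripts made up 16.6% to 26.7% of Cd8a counts in injured wild-type libraries and 7.40% to 30.1% in vehicle ones. The share was 2.89% to 19.7% in labelled-deleted injured libraries and 0% to 20.4% in contralateral ones. Over all genes the share was 6.85% to 8.10% in injured wild-type and 6.31% to 7.93% in injured vehicle libraries. It was 5.29% to 6.92% in injured labelled-deleted and 1.99% to 5.56% in contralateral libraries, where Cd8a had 46 to 87 counts. The part of the retained-intron share in the Cd8a changes was not tested.

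Cd3 RNA differed more between injured and contralateral kidneys than Cd8 RNA did. The summed CPM of Cd3d, Cd3e and Cd3g, the signalling chains of the T cell receptor, was 0.333 to 3.65 in contralateral and 4.50 to 73.8 in injured libraries. Cd8a and Cd8b1 together held 3.01 to 4.07 CPM in contralateral and 3.78 to 41.0 CPM in injured libraries. Cd8 counts divided by Cd3 counts therefore ran from 1.01 to 9.22 in contralateral libraries (median 1.89) and from 0.474 to 0.979 in injured ones (median 0.618), with no overlap between the 12 and 12 libraries. In the 5 uninjured and nephrectomy libraries it ran from 1.05 to 5.05 (median 3.04). The 1.05 was uninjured library 2, at 0.592 M counts and with 0 counts of Cd8a. The contralateral 9.22 came from the library with the lowest Cd3 sum, 0.333 CPM, so these ends rest on few counts. The ratio was formed after the values were seen and was not tested.

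Granule genes covered a wide span of change. Gzmk, a granzyme of memory-like CD8 T cells, had the largest fitted change of the 10 genes: 1.74, 6.68, 2.75 and 1.98 CPM in the wild-type, 3.74, 0.425, 1.69 and 3.75 CPM in the vehicle and 0.124, 0.940, 0.339 and 2.21 CPM in the labelled-deleted injured libraries. No contralateral library held more than 0.288 CPM. It rose by 3.74 on the log2 scale (SE 0.48, adjusted p = 2.45e-07), and only labelled-deleted library 1 lay within the contralateral range. Nkg7, a granule membrane protein of cytotoxic lymphocytes, rose by 2.39 (SE 0.35, adjusted p = 1.32e-06) from 0.382 to 1.48 CPM in contralateral to 0.551 to 16.1 CPM in injured kidneys. Gzmb, the granzyme that cuts caspases in the target cell, was the lowest of the set. Its injured libraries held 1 to 48 counts, or 0.042 to 1.94 CPM, and the contralateral ones up to 0.256 CPM. Gzmb rose by 1.50 over the arms (SE 0.51, adjusted p = 0.0104) and passed in no arm alone.

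Ccl5, a chemokine stored and released by T cells, stood at 5.60, 13.998, 3.92 and 3.01 CPM in wild-type, 7.77, 1.22, 0.995 and 4.35 CPM in vehicle and 1.44, 0.940, 0.466 and 4.11 CPM in labelled-deleted injured libraries. Contralateral libraries held 0.111 to 0.791 CPM. The rise was 2.66 on the log2 scale (SE 0.45, adjusted p = 1.23e-05), and labelled-deleted library 3 was the 1 injured library inside the contralateral range. Cxcl9 stood at 15.0, 53.9, 16.6 and 13.4 CPM in wild-type, 21.7, 2.02, 1.81 and 18.7 CPM in vehicle and 1.89, 3.36, 1.06 and 22.7 CPM in labelled-deleted injured libraries, against 0.042 to 2.11 CPM in contralateral ones. The injured kidneys thus formed a high set of all 4 wild-type, 2 vehicle and 1 labelled-deleted libraries, and 5 low ones, of which 4 lay inside the contralateral range. Cxcl9 rose by 3.38 (SE 0.54, adjusted p = 5.23e-06).

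Cxcl10 had another order of libraries. It stood at 21.5, 27.6, 11.3 and 11.02 CPM in wild-type, 45.6, 16.4, 23.2 and 24.2 CPM in vehicle and 19.4, 45.3, 3.77 and 78.3 CPM in labelled-deleted injured libraries. Contralateral libraries held 1.45 to 5.78 CPM. Only labelled-deleted library 3 fell within the contralateral range, and the highest library was in the labelled-deleted group. The rise was 2.97 on the log2 scale (SE 0.41, adjusted p = 6.98e-07).

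Receptor genes rose as well. Cxcr3, the receptor of Cxcl9 and Cxcl10, stood at 13.04, 25.3, 12.96 and 8.59 CPM in wild-type, 7.53, 3.98, 1.95 and 10.1 CPM in vehicle and 1.20, 1.93, 0.975 and 8.19 CPM in labelled-deleted injured libraries, and at 0.111 to 1.02 CPM in contralateral ones. It rose by 2.91 on the log2 scale (SE 0.35, adjusted p = 8.88e-08). Only labelled-deleted library 3 was within the contralateral range. Cxcr6, the receptor of the membrane-bound chemokine Cxcl16 on tissue T cells, rose by 1.58 (SE 0.27, adjusted p = 1.13e-05). It ranged from 1.53 to 26.2 CPM in injured and from 0.630 to 3.89 CPM in contralateral kidneys.

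Per kilobase of transcript, the scale on which genes can be set beside each other, the median level over the 12 injured libraries was highest for Cxcl10, at 19.0 CPM per kilobase. Nkg7 at 6.51, Ccl5 at 6.38, Cxcl9 at 4.999, Cxcr3 at 4.54, Cd8a at 4.47 and Cxcr6 at 4.30 followed, with ranges that overlapped one another throughout. Cd8b1 at 2.11, Gzmk at 1.65 and Gzmb at 0.162 CPM per kilobase were the lowest.

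Within single arms 9 of 10 genes passed upward in wild-type kidneys (32% of genes tested), 9 of 10 in vehicle kidneys (32.6%) and 6 of 10 in labelled-deleted kidneys (19.3%). Gzmb was the gene missing in the wild-type and vehicle arms. In the labelled-deleted arm the 6 were Gzmk, Nkg7, Ccl5, Cxcl9, Cxcl10 and Cxcr3, and Cd8a stood at log2 0.93 (SE 0.40, adjusted p = 0.0717), Cd8b1 at 0.87 (SE 0.50, adjusted p = 0.174) and Cxcr6 at 0.76 (SE 0.47, adjusted p = 0.209). All 4 injured libraries lay above all 4 contralateral libraries of their arm for 9 genes in wild-type, 8 in vehicle and 3 in labelled-deleted kidneys, where 52.9%, 43.4% and 24.7% of genes tested did so. The 3 were Cxcl9, Cxcl10 and Cxcr3. Leaving out labelled-deleted injured library 4 reduced the count of that arm to 2 genes, Gzmk and Cxcl10, with Cd8b1 then at -0.077, and leaving out contralateral library 2 of that arm reduced it to 3. The shares of all genes that passed in those fits are not reported here.

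**Figure D2:**
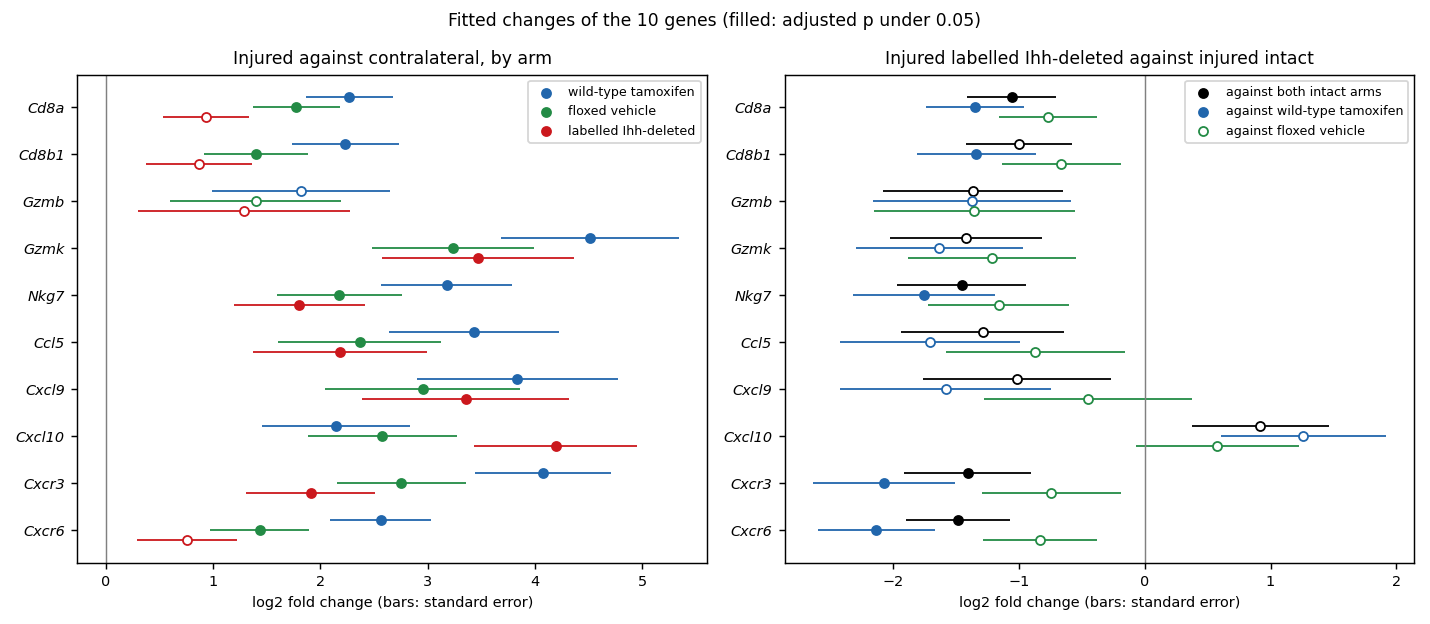
Fitted log2 fold changes (horizontal axis) of the 10 genes (vertical axis) with standard errors, for injured against contralateral kidneys in each arm (left) and for injured labelled Ihh-deleted against injured intact kidneys (right); filled points passed an adjusted p of 0.05. On the left every point is above 0, and on the right Cxcl10 is the gene above 0, at 0.92 against both intact arms, 1.26 against wild type and 0.58 against vehicle (-0.041 without labelled-deleted library 4), with no pass.

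T cell genes outside the set rose with it, where 39% of the 17591 genes tested passed upward. All 12 genes of the T cell receptor complex and its signalling passed upward (median log2 3.18), led by the adhesion receptor Cd2 at 3.82 (SE 0.45), the costimulator Cd28 at 3.66 (SE 0.52) and Cd5 at 3.62 (SE 0.51). So did 8 of 8 helper and regulatory T cell genes (median 3.65), with the inhibitory receptor Ctla4 at 5.86 (SE 0.63), Il7r at 4.46 (SE 0.34) and Icos at 3.85 (SE 0.45). Cd4, the co-receptor of helper T cells, went from 0.455 to 1.34 CPM in contralateral to 2.59 to 45.3 CPM in injured kidneys. Checkpoint and residency genes passed in 9 of 10 (median 2.59), with Pdcd1, which encodes PD-1, at 5.16 (SE 0.43), Tigit at 3.87 (SE 0.48) and Lag3 at 3.43 (SE 0.36).

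Further cytotoxic effector genes passed upward in 13 of 14 (median log2 2.26), where 39% of genes tested did so. The largest changes were in the receptor Slamf7 at 3.08 (SE 0.28) and the transcription factors Runx3 at 2.79 (SE 0.24) and Tbx21 at 2.57 (SE 0.40). Prf1, the pore-forming perforin, rose by 1.60 (SE 0.34, adjusted p = 0.000208), and Ifng, which encodes interferon gamma, by 1.68 (SE 0.52, adjusted p = 0.00602) from at most 0.160 CPM in contralateral to at most 1.38 CPM in injured kidneys. Gzma was the gene that did not pass, at 0.69 (SE 0.45, adjusted p = 0.168). Of 6 natural killer cell genes 4 passed the filter on low counts and 3 of these rose, with Klre1 at 1.78 (SE 0.34), Klrb1c at 1.24 (SE 0.29) and Txk at 0.98 (SE 0.20).

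Genes on the receiving side of interferon gamma rose in 14 of 15 (median log2 1.34), where 39% of genes tested rose. Among them were the class II regulator Ciita at 2.47 (SE 0.24), Socs1 at 1.97 (SE 0.33) and Gbp2 at 1.87 (SE 0.28). Class I presentation genes rose in 10 of 10 (median 1.31), with its regulator Nlrc5 at 2.86 (SE 0.26), the peptide carrier Tap1 at 2.11 (SE 0.23) and the proteasome subunit Psmb9 at 2.05 (SE 0.29). Type 1 dendritic cell genes, markers of the cells that present antigen to CD8 T cells, rose in 5 of 5 (median 2.11), with Wdfy4 at 3.01 (SE 0.23), Xcr1 at 2.16 (SE 0.24) and Clec9a at 2.11 (SE 0.24). Of 8 measured receptor and ligand partners of the set 7 rose (median 1.39): Ccr1 by 2.66 (SE 0.26), Ccl3 by 1.44 (SE 0.44) and the Cxcr6 ligand Cxcl16 by 1.35 (SE 0.12) among them.

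Macrophage, B cell and proximal tubule genes moved with the set, and their part in the result was not tested. All 6 macrophage genes and all 5 B cell genes rose (median log2 2.25 and 3.72), and all 6 proximal tubule genes fell (median -1.63), where 34.7% of genes tested fell. Of 4 neutrophil genes 1 rose, a share below the 39% of all genes tested, and of 5 endothelial genes 2 fell, near the share of all genes. The summed level of the macrophage list was 136 to 997 CPM in injured and 83.7 to 175 CPM in contralateral kidneys, and that of the B cell list 5.997 to 369 CPM and 3.12 to 7.21 CPM. No gene of either list was at 0 throughout any of these groups. The proximal tubule list summed to 3059 to 17641 CPM in injured and 13271 to 22168 CPM in contralateral kidneys. Of 3 heart muscle genes measured, 2 rose, with a list sum of at most 6.16 CPM in the injured and 1.53 CPM in the contralateral groups.

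In injured kidneys labelled Ihh-deleted, Cd8a, Nkg7, Cxcr3 and Cxcr6 were lower than in injured intact kidneys (4 against 8 libraries), and Cxcl10 had the opposite sign with no pass. Of the 10 genes, 4 passed downward, where 16.7% of genes tested did so. Cd8a fell by 1.06 on the log2 scale (SE 0.35, adjusted p = 0.0213), Nkg7 fell by 1.45 (SE 0.51, adjusted p = 0.0282), Cxcr3 fell by 1.41 (SE 0.50, adjusted p = 0.0315) and Cxcr6 fell by 1.48 (SE 0.42, adjusted p = 0.00798). Gzmk at -1.42, Gzmb at -1.36, Ccl5 at -1.29, Cxcl9 at -1.01 and Cd8b1 at -1.0002 did not pass, nor did Cxcl10 at 0.92 (SE 0.54, adjusted p = 0.189). The median of the 10 was -1.32, against -0.01 over all genes tested. This comparison shares its injured labelled-deleted libraries with those of the injury comparison in that arm.

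How many genes passed depended on single libraries. Injured labelled-deleted library 4 was the highest of its group in all 10 genes, for example 8.19 CPM of Cxcr3 against at most 1.93 CPM in the other 3, and 3.96 CPM of Cd8b1 against at most 0.893 CPM. Its summed T cell receptor list was 143 CPM, where the group median was 30.7 CPM and the wild-type libraries began at 108 CPM. Without it the differences were larger and 8 genes passed, all downward, where 21.1% of genes tested passed downward in that fit: Cxcl9 at -2.69 (SE 0.81, adjusted p = 0.00969), Nkg7 at -2.63 (SE 0.50), Cxcr3 at -2.49 (SE 0.50), Gzmk at -2.29 (SE 0.68), Cxcr6 at -2.14 (SE 0.43), Ccl5 at -2.09 (SE 0.72), Cd8b1 at -1.95 (SE 0.41) and Cd8a at -1.69 (SE 0.34). Cxcl10 then stood at 0.30 (SE 0.58, adjusted p = 0.708). Without labelled-deleted library 1, 2 or 3, without wild-type library 2 or without vehicle library 4, the count was 1 in each case, and the gene was Cxcr6. With the 3 heart-profile libraries in the fit the count was also 1, again Cxcr6. The shares of all genes that passed in the fits with a count of 1 are not reported here. A drop in these genes is therefore not told apart from a drop over all genes.

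Each intact arm was also compared on its own. Against the wild-type arm 5 genes passed downward (18.1% of genes tested): Cxcr6 at -2.13 (SE 0.46), Cxcr3 at -2.07 (SE 0.56), Nkg7 at -1.75 (SE 0.56), Cd8a at -1.35 (SE 0.39) and Cd8b1 at -1.34 (SE 0.47). Leaving out wild-type library 2 reduced that count to 2, and the share of all genes in that fit is not reported here. Against the vehicle arm edgeR called 0 of 10, with 1 gene at an unadjusted p under 0.05 and 0 called by DESeq2, where 7.31% of genes tested passed downward. Cxcr6 stood at -0.83 (SE 0.45, adjusted p = 0.196) and Cd8a at -0.77 (SE 0.39, adjusted p = 0.168) there. Without labelled-deleted library 4 that comparison called 6 genes, all downward, where 15.1% of genes tested passed downward, and Cxcl10 stood at -0.041 in place of 0.58. Between the intact arms themselves edgeR called 0 of 10, with 2 at an unadjusted p under 0.05 and 0 called by DESeq2, where 2.23% of genes tested passed in either direction. Cxcr3 stood at 1.33 (SE 0.55, adjusted p = 0.256) and Cxcr6 at 1.30 (SE 0.45, adjusted p = 0.154), higher in wild type.

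Whether the response to injury itself differed between labelled-deleted and intact arms was tested as an interaction. By edgeR 0 of 10 genes passed, with 4 at an unadjusted p under 0.05 and 0 called by DESeq2, where 16.1% of genes tested passed in either direction. Cxcl10 stood at 1.83 (SE 0.85, adjusted p = 0.127), Cxcr3 at -1.50 (SE 0.73, adjusted p = 0.146), Cxcr6 at -1.24 (SE 0.57, adjusted p = 0.124) and Cd8a at -1.09 (SE 0.49, adjusted p = 0.116). Without labelled-deleted injured library 4 the interaction passed for 5 genes, all negative, where 12.3% of genes tested passed in that direction: Cxcr3 at -2.58 (SE 0.65), Nkg7 at -2.05 (SE 0.64), Cd8b1 at -1.89 (SE 0.52), Cxcr6 at -1.89 (SE 0.54) and Cd8a at -1.72 (SE 0.44). Without contralateral vehicle library 2, the most deeply sequenced at 37.9 M counts, it passed for 1, Cxcr6, and the share of all genes in that fit is not reported here. Among contralateral kidneys edgeR called 0 of 10 between labelled-deleted and intact arms, with 0 at an unadjusted p under 0.05 and 0 called by DESeq2, where 0.00568% of genes tested passed.

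Lists around the set are read against the 16.7% of all genes tested that passed downward in the injured labelled-deleted kidneys. T cell receptor genes passed downward in 5 of 12 (median log2 -1.22), with Thy1 at -1.63 (SE 0.38), Zap70 at -1.23 (SE 0.44) and Cd247 at -1.18 (SE 0.45). Helper and regulatory genes passed in 2 of 8, near the share of all genes: Foxp3 at -1.47 (SE 0.53) and Il2ra at -0.98 (SE 0.35). Cd3e at -1.22 (SE 0.52, adjusted p = 0.0663) and Cd4 at -1.11 (SE 0.53, adjusted p = 0.104) did not pass. Cytotoxic effector genes passed in 5 of 14 (median -1.16), with Xcl1 at -2.29 (SE 0.73), Ctsw at -1.62 (SE 0.50) and Klrk1 at -1.43 (SE 0.42). Of the natural killer cell genes, Ncr1 at -1.46 (SE 0.65, adjusted p = 0.0801) and Klrb1c at -0.94 (SE 0.44, adjusted p = 0.0918) did not pass. Among checkpoint and residency genes Zfp683 fell by 1.86 (SE 0.44) and the integrin Itgae by 1.67 (SE 0.32), and 5 of the 10 genes of that list passed.

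Class I presentation genes passed downward in 9 of 10 (median log2 -0.80), with Psmb9 at -1.26 (SE 0.44) and Tap1 at -1.25 (SE 0.34), interferon gamma signalling genes in 6 of 15 with Ciita at -1.33 (SE 0.36) and Irf8 at -1.26 (SE 0.31), and type 1 dendritic cell genes in 5 of 5 with Clec9a at -1.57 (SE 0.37) and Xcr1 at -1.51 (SE 0.36). All 6 macrophage genes fell (median -1.46; list sum 136 to 429 CPM against 332 to 997 CPM in the intact injured arms), and all 6 proximal tubule genes rose, as did 20.5% of genes tested (median 1.09; 8570 to 17641 CPM against 3059 to 11432 CPM). B cell genes had a median of -1.46, and Ms4a1, at -1.61 (SE 0.72, adjusted p = 0.0801), did not pass. The part of these cell types in the lower Cd8a, Nkg7, Cxcr3 and Cxcr6 was not tested.

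Partner genes of the chemokines went both ways in that comparison. Of 8 measured, 3 passed downward, among them Ccr1, which fell by 1.33 (SE 0.38), and Cxcl16, which fell by 0.52 (SE 0.18). Cxcl11, the other ligand of CXCR3, passed upward at 2.33 (SE 0.42, adjusted p = 0.000505). It stood at 2.02, 4.79, 1.02 and 6.40 CPM in the injured labelled-deleted libraries and at 0.441 to 1.31 CPM in the 8 injured intact ones. Labelled-deleted libraries 1, 2 and 4 lay above every intact library, and library 3 lay within their range. In the wild-type and vehicle arms Cxcl11 did not pass between injured and contralateral kidneys (log2 -0.16, SE 0.54, and 0.20, SE 0.55), while it rose in the labelled-deleted arm by 1.82 (SE 0.52, adjusted p = 0.0109), and the interaction had an adjusted p = 0.0563.

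Cxcl10 and Cxcl9 were set beside each other as a ratio of counts within each injured library, log2((Cxcl10 + 0.5)/(Cxcl9 + 0.5)), a measure chosen after the values were seen. It averaged 2.67 (SD 1.02, n = 4) in labelled-deleted, 2.03 (SD 1.56, n = 4) in vehicle and -0.32 (SD 0.63, n = 4) in wild-type libraries. Every labelled-deleted library was above every wild-type library, with a two-sided exact permutation p = 0.0286, the smallest that 4 against 4 allows, and 0.105 after adjustment over the 4 comparisons made. Against both intact arms the difference was 1.82 (exact permutation p = 0.0788, adjusted 0.105), against vehicle 0.64 (exact permutation p = 0.486), and wild type was below vehicle by -2.35 (exact permutation p = 0.0571, adjusted 0.105). No comparison of the ratio passed after adjustment.

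**Figure D3:**
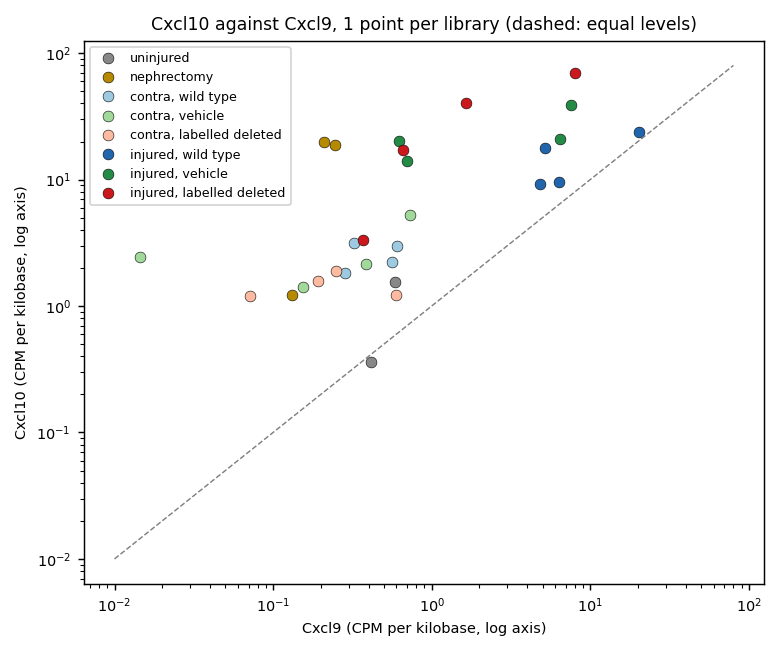
Cxcl10 (vertical) against Cxcl9 (horizontal) in CPM per kilobase on log axes, 1 point for each of 29 libraries, coloured by group; the dashed line marks equal levels. Injured wild-type library 2 lies nearest the line among injured libraries, at 23.6 against 20.2 CPM per kilobase, and nephrectomy libraries 2 and 4 stand far above it at Cxcl10 levels of 18.8 and 19.97 CPM per kilobase.

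In the remaining kidney after nephrectomy, Cxcl10 was high in 2 of 3 libraries, and the other 9 genes did not pass. Cxcl10 stood at 1.26, 23.8 and 25.7 CPM in nephrectomy libraries 1, 2 and 4, while Cxcl9 was at 0.381, 0.714 and 0.601 CPM, Ccl5 at 0.381, 0 and 0 CPM and Cxcr3 at 0.343, 0.250 and 0.601 CPM. Cd8a stood at 2.32, 2.14 and 2.40 CPM, near the contralateral level. Libraries 2 and 4 thus lay within the injured range for Cxcl10, and library 1 lay below every contralateral library. Against the 12 contralateral kidneys of the injury arms 1 of 10 genes passed, Cxcl10 upward at 2.80 (SE 0.54, adjusted p = 0.00222), where 3.38% of genes tested rose. It did not pass without nephrectomy library 2 (2.41, adjusted p = 0.0597). The vehicle and labelled-deleted arms differ from the nephrectomy group in genotype, and tamoxifen treatment and the time after surgery may differ too. These cannot be told apart from nephrectomy in this comparison. Cxcl11 rose in the same comparison by 1.80 (SE 0.44, adjusted p = 0.0151), from 0.371 to 1.28 CPM to 0.533, 2.25 and 4.09 CPM. In the same comparison 3 of 4 neutrophil genes rose, with S100a9 at 3.13 (SE 0.62), and the list summed to 8.85 to 15.4 CPM against 1.03 to 8.04 CPM in contralateral kidneys. Of 5 endothelial genes 4 fell, with Plvap at -0.94 (SE 0.21), where 2.25% of genes tested fell, and all 3 heart muscle genes measured rose, with a list sum of 1.80 to 432 CPM. Cxcl10 passed without nephrectomy library 1, the library with heart muscle RNA (3.37, SE 0.49, adjusted p = 0.000129), and the part of the other cell types was not tested. Retained-intron transcripts made up 3.03%, 27.9% and 28.9% of Cxcl10 counts in nephrectomy libraries 1, 2 and 4, 5.77% to 17.6% in the 12 injured libraries and 2.37% to 21.5% in the contralateral ones. Over all genes the share was 4.46%, 3.91% and 3.98% in those nephrectomy libraries, 5.29% to 8.10% in injured and 1.99% to 5.56% in contralateral ones. What the retained-intron share of Cxcl10 comes from was not tested.

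Uninjured kidneys gave little room for a comparison, since 2 kidney libraries were left, at 0.592 M and 7.55 M counts. They held 0 to 11 counts of each gene per library, and Gzmk had 0 counts in both, so no fold is given for it. Against them, nephrectomy kidneys had 0 of 10 genes called by edgeR, 1 at an unadjusted p under 0.05 and 1 by DESeq2, the gene being Cxcl10 (edgeR log2 5.14, SE 1.64, adjusted p = 0.237; 0.176% of genes tested passed in either direction). For contralateral kidneys edgeR called 0 of 10, with 1 at an unadjusted p under 0.05 and 0 by DESeq2 (0.426% of genes tested). With the heart-profile libraries counted under their kidney labels, the fit called 4 in the latter comparison (Gzmk, Cxcl10, Cxcr3 and Cxcr6) and Cxcl10 in the former. That fit sets kidney partly against heart, since uninjured libraries 1 and 4 then count as kidney. The shares of genes given above belong to the fit without them. The share in the fit with them is not reported here, so these calls are not read as results about the set.

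Within the 12 injured libraries, deviations of log2 CPM from the arm means moved together for most of the set. Pearson's r with Cd8a was 0.97 for Cxcl9, 0.96 for Cxcr3, 0.96 for Nkg7, 0.90 for Cd8b1, 0.89 for Cxcr6, 0.89 for Ccl5, 0.84 for Gzmb, 0.84 for Gzmk and 0.65 for Cxcl10. The libraries are shared by all these values, so they describe the set and carry no test. Among 14809 genes at a mean log2 CPM of 0 or above, the genes outside the set closest to Cd8a were Xlr4b, Trp53inp1, Gbp8, Cd4 and Lck (r of 0.98 to 0.99), and those closest to Cxcl9 were Rnase6, Lck, Trbc1, Gm12250 and Cd28 (r of 0.98 to 0.99). Lck, the kinase bound to the CD4 and CD8 tails, is in both lists.

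In the single-cell library of an injured kidney, most RNA of the granule and CD8 genes lay in T cell-like clusters, Cxcl9 was not seen there, and Cxcl10 was spread over many clusters. The library held 3063 cells with a median of 2014 UMIs (unique molecular identifiers), the uninjured one 1313 cells with a median of 2391, and 8 barcodes occurred in both. With 1 library per condition there is no test, intervals below are exact 95% intervals that cover counting error only, and cells had been sorted as live. Cells were clustered without the 10 genes. Clusters 7 and 21, with 261 and 64 cells, held 7 of 7 T cell markers raised and are called T cell-like. Cluster 7 also held UMIs of natural killer cell markers, in few of its cells. There were 30 of Eomes (10.7% of cells), 33 of Txk (10.3%) and 19 of Klre1 (3.83%). Klra8 had 17 (0.766%) and Klrb1c 5 (1.53%), against 654 of Cd3g (85.8%). No value is given here for the markers Ncr1 and Klra4.

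**Figure D4:**
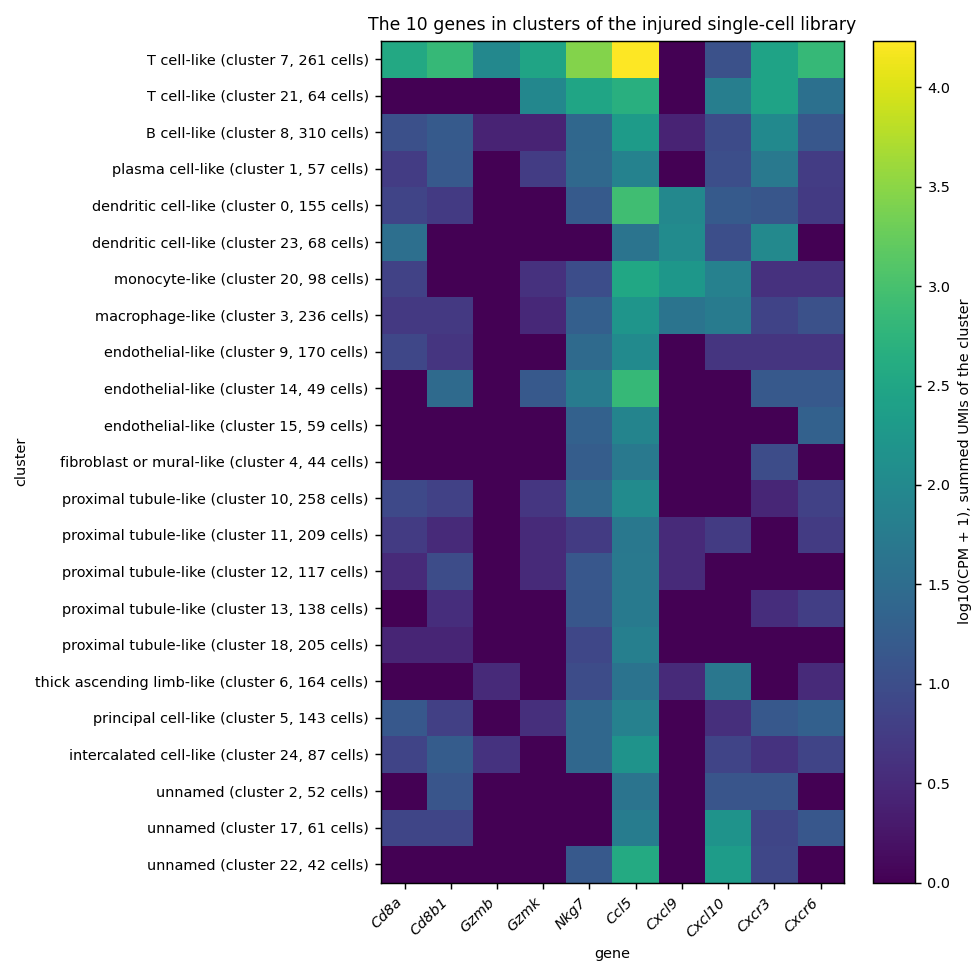
Level of each gene (columns) in 23 clusters of at least 20 cells in the injured single-cell library (rows), as log10(CPM + 1) of the summed UMIs of the cluster. Cluster 7, T cell-like, is highest for Cd8a, Cd8b1, Gzmb, Gzmk, Nkg7, Ccl5 and Cxcr6, and Cxcl9 is seen in the dendritic cell-like, monocyte-like and macrophage-like clusters.

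T cell-like clusters held 140 of 188 Cd8a UMIs, or 74.5% (interval 67.6% to 80.5%), and 85.9% of Cd8b1, 92.3% of Gzmb, 91.3% of Gzmk, 89.2% of Nkg7, 83.3% of Ccl5 and 85.5% of Cxcr6 UMIs, while being 10.6% of the cells. All of the Cd8a, Cd8b1 and Gzmb UMIs among them were in cluster 7. Cluster 21, led by Tnfrsf4, Tnfsf8 and Izumo1r, held 0 UMIs of Cd8a, Cd8b1 and Gzmb in 64 cells, with 32 of Cxcr3, 34 of Nkg7 and 52 of Ccl5. Proximal tubule-like cells, which should lack these genes, held Ccl5 at 66.8 CPM and Nkg7 at 12.9 CPM, against 13417 and 2275 CPM in T cell-like cells. A Ccl5 UMI was found in 12.9% of proximal tubule-like cells (median 2030 UMIs) and in 60.6% of T cell-like cells (median 1294 UMIs).

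Within cluster 7, a Cd8a or Cd8b1 UMI was found in 115 of 261 cells, 1 of which also held a Cd4 UMI, and 31 other cells held Cd4. Among the 115 cells (median 1301 UMIs) Nkg7 was detected in 93.9% (interval 87.9% to 97.5%), Cxcr6 in 53.9%, Gzmk in 41.7% (32.6% to 51.3%), Cxcr3 in 32.2%, Gzmb in 11.3% (6.16% to 18.6%) and Prf1 in 2.61% (0.541% to 7.43%). Among the 146 cells with neither (median 1246 UMIs) Nkg7 was detected in 43.2% (35.0% to 51.6%), Cxcr6 in 43.2%, Gzmk in 10.96% (6.39% to 17.2%), Cxcr3 in 26.03%, Gzmb in 3.42% (1.12% to 7.81%) and Prf1 in 0.685% (0.0173% to 3.76%). Ccl5 was detected in 94.8% (89.0% to 98.1%) of the cells with a Cd8 UMI and in 52.1% (43.6% to 60.4%) of those with neither. These shares describe cells of 1 library and carry no test. Detection at this depth misses cells that hold a gene, so cells with neither Cd8 UMI are not cells without CD8.

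Cxcl9 was the reverse of the granule genes: T cell-like clusters held 0 of 161 UMIs, and dendritic, monocyte and macrophage-like clusters held 157 (97.5%, interval 93.8% to 99.3%). Monocyte-like cells held it at 173 CPM, dendritic cell-like cells at 99.6 CPM, split into 45 UMIs in the cluster led by Cd209a and 34 in the cluster led by Xcr1, and macrophage-like cells at 40.9 CPM. Cxcl10 had a wider spread. The same 3 myeloid classes held 62 of 165 UMIs (37.6%, interval 30.2% to 45.4%), and 31 more were in an unnamed cluster led by Ubd, C3 and Ptgds, 23 in an unnamed cluster led by Bst1, Cryab and Apela, and 21 in thick ascending limb-like cells. T cell-like cells held 11, at 22.1 CPM (interval 11.04 to 39.6), and dendritic cell-like cells 10, at 12.6 CPM. Proximal tubule-like cells held 2 UMIs of each, or 0.83 CPM.

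Cxcr3 was not confined to T cells, while T cell-like clusters held 266 of 311 Cxcr6 UMIs. T cell-like clusters held 141 of 280 Cxcr3 UMIs (50.4%, interval 44.3% to 56.4%), at 284 CPM. B cell-like cells held 61 at 101 CPM, plasma cell-like cells 21 at 49.9 CPM and the dendritic cell-like cluster led by Xcr1 31, while proximal tubule-like cells stood at 0.83 CPM. That same cluster held 11 of the 14 Cd8a UMIs of dendritic cell-like cells and 0 of Cd8b1. Mouse type 1 dendritic cells are known to carry the CD8 alpha chain alone. Ccl5 also had a second site, 411 UMIs in the dendritic cell-like cluster led by Cd209a, and the ligand of Cxcr6, Cxcl16, had its largest number in macrophage-like cells, 363 UMIs.

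In the uninjured single-cell library 7 of the genes were listed, and Gzmb, Gzmk and Cxcl9 were not. Over all cells Ccl5 had 174 UMIs, or 42.9 CPM (interval 36.8 to 49.8), against 8006 UMIs and 1032 CPM (1009 to 1055) in the injured library. Cd8a had 7 UMIs against 188, or 1.73 CPM (0.695 to 3.56) against 24.2 CPM (20.9 to 28.0). Nearly all lay in 1 cluster of 40 cells, called macrophage-like from C1qa, C1qb and C1qc, which held 169 of the Ccl5, all 27 Nkg7, all 7 Cd8a and 18 of 19 Cd8b1 UMIs. That cluster also held 28 UMIs of Cd3g, 17 of Cd3d and 14 of Ms4a1, so it was not made of macrophages alone by its markers. Of Cxcl10 5 UMIs were found in 4 cells. Both the share of leukocytes among the sorted cells and the RNA per cell enter these totals, and they compare 2 libraries, not 2 conditions.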

How the data were processed

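Bulk RNA was measured in 32 libraries and single cells in 2. Per the submitters' processing notes, Salmon 1.4 was used for the bulk data and Cell Ranger and STAR for the single cells, with GRCm38 (mm10) as genome. The authors deposited expected counts per transcript for the bulk libraries and UMI counts per gene and cell for the single-cell libraries. Of 105833 transcripts 105203 were matched to genes (GENCODE M21), and the others held 0.213% of the counts. Transcripts were summed per gene and rounded to whole numbers.

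Genes were tested with edgeR 4.0.16 (R 4.3.3; filterByExpr, TMM, quasi-likelihood test, Benjamini-Hochberg adjustment over 17591 genes) in 1 fit of 29 libraries, without the 3 heart-profile ones. DESeq2 1.42.0, other scaling, no filter, all 32 libraries, a replicate block and each library left out were the alternatives. Log2 values with CPM used the stated pseudocounts. On simulated data for the injury comparison, with 200 of 16687 genes changed, 200 were recovered with 10 false calls. The changed genes were well expressed and shared a fixed size of change and a single dispersion. The real comparison called 12972 of 17591 genes, so the simulation checks that the fit runs and does not gauge calls of low or variable genes. Single cells were clustered with scanpy 1.11.5 (2000 variable genes without the 10 studied, 30 components, resolution 1), clusters under 20 cells stayed unnamed, a limit set after the clusters were seen, and 5 and 3 cells were called doublets, which is too few for the caller to have worked.

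The members and lists were chosen with earlier results of these data known. Genes named from a list are the up to 3 largest changes past the threshold, or up to 2 by size where none passed; partner genes named beside these, Gzma, Prf1, Ifng and the Cd3 and Cd4 values were chosen after their values were seen. The values of some genes of these lists are not reported here. Intervals and floors cover counting error only, with 3 counts as the limit that a count of 0 allows. Replicate numbers in the labels did not pair the samples.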

Additional observations from a re-analysis of the deposited data

Results flagged for a closer look

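In groups of 4 libraries, 7 of 60 combinations of gene and group held a library far from the other 3 by Dixon's criterion. Chance gives about 1 in 20 for normally distributed values. The criterion was applied to CPM without logs, so that rate need not hold here. In the injured wild-type group, library 2 stood apart with Cd8a at 33.2 CPM, Cxcl9 at 53.9 CPM and Gzmb at 1.94 CPM. In the injured labelled-deleted group, library 4 stood apart with Cd8b1 at 3.96 CPM, Cxcl9 at 22.7 CPM, Cxcr3 at 8.19 CPM and Nkg7 at 6.28 CPM. The genes within a library are not independent of each other, and the cause was not tested.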

How the results depend on the processing

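Of 4412 fold changes of single genes under the alternatives 44 had the opposite sign, none of a gene that passed in either fit. Leaving out 1 library, Cxcl10 in labelled-deleted against vehicle kidneys ranged from -0.041 (without labelled-deleted library 4) to 0.97, and Cd8b1 for injury in the labelled-deleted arm from -0.077 (without the same library) to 1.14. With DESeq2 the median of the 10 genes for nephrectomy against uninjured kidneys was -0.15 in place of 0.69. Another scaling and no filter on low counts gave the same counts of genes passed. With all 32 libraries the count fell from 4 to 1 for injured labelled-deleted against intact kidneys from 5 to 3 against wild type, from 6 to 4 for injury in the labelled-deleted arm (without Nkg7 and Ccl5) and from 10 to 9 for injury over the arms (without Gzmb), and it was 4 in place of 0 for contralateral against uninjured and 1 in place of 0 for nephrectomy against uninjured kidneys. DESeq2 also gave 1 in the last comparison. In both comparisons with uninjured kidneys, the fit of all 32 libraries counted heart-profile libraries as uninjured kidneys. Leaving out 1 library gave 1 to 8 for labelled-deleted against intact, 2 to 8 against wild type, 0 to 6 against vehicle, 0 to 5 for the interaction, 2 to 7 for injury in the labelled-deleted arm and 0 to 1 for nephrectomy against contralateral kidneys. Beyond those given above, the shares of all genes that passed in these fits are not reported here. The counts are therefore not read as results about the set. The cause was not tested. With the replicate block the labelled-deleted arm passed 2 genes in place of 6, the interaction passed 0 as without it, and the injury comparison over the arms 9 of 10. Same-numbered injured and contralateral libraries correlated at -0.176 to 0.173 over 12 pairs, and 5 correlated best with their own number, so the numbers were not taken as pairs. The block could not be fitted for comparisons between arms. Uninjured leave-outs left 1 library, assumed to vary like the other groups. The T cell-like share of Cd8a UMIs was 74.5% to 78.2% over the clustering alternatives. Depth limits the uninjured group and Gzmb.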
